A study of Homo sapiens with 8 samples.

Results

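Transcript levels of 10 BCL2 family genes were examined in HCT116, a human line from a colorectal cancer, in which the protein NUDT21 carries a degradation tag (dTAG). The genes were taken by name from the Ensembl identifiers of the deposited tables, and they make up 10 of 78932 genes listed and 10 of 12618 that held enough counts to be tested. They are the pro-survival genes MCL1 and BCL2L1, the pore-forming effectors BAX and BAK1, the BH3-only genes BBC3, PMAIP1, BCL2L11, BID and BIK, and the family member BCL2L12. The rule itself names genes and uses no measured value, although the members were chosen with earlier results of these data known.

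All cells carried the tag on NUDT21, a subunit of cleavage factor Im that binds pre-mRNA near poly(A) sites, and all were given JTE-607, a compound that blocks CPSF73, the enzyme that cuts pre-mRNA there. One group of 4 libraries came from cells given DMSO+JTE-607 and the other 4 from cells given dTAGV1+JTE-607. dTAGV1 is the small molecule that sends the tagged protein to degradation. Doses, times and whether the line is a single clone are not given in the sources used here, and cells without JTE-607 were not analysed here. Nothing in the labels says that replicates came from separate cultures, so p-values measure only the spread between these libraries.

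BCL2 family proteins decide whether the outer membrane of the mitochondrion is breached during apoptosis. BAX and BAK1 form the pores, MCL1 and BCL-XL (from BCL2L1) hold them in check, and BH3-only proteins respond to stress by binding the pro-survival proteins or by activating the effectors. PUMA (from BBC3) and NOXA (from PMAIP1) are BH3-only proteins whose genes are induced by several stress pathways. MCL1 protein and MCL1 mRNA are both short-lived, which makes this gene a frequent subject in studies of drugs that block transcription.

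Each library held 8649238 to 9977205 reads, of which 3447842 to 4291256 were counted to genes on their own strand. NUDT21 RNA fell from 32.2 ± 2.81 to 8.25 ± 2.62 CPM (counts scaled to 1000000 per library, SD, n = 4 each). The tag acts on protein and protein was not measured, so this fall does not check the degradation, and its cause was not tested. All 7 epithelial markers checked, among them EPCAM and KRT18, were detected, with a summed level of 1723 to 2014 CPM with DMSO and 1532 to 1648 CPM with dTAGV1. Leukocyte markers (5 genes) reached 7 counts at most in any library, and endothelial markers (3 genes) 10. Of 5 fibroblast markers, COL1A1 had up to 73 counts, COL3A1 and DCN were at 0 in all libraries, and COL1A2 and PDGFRB had at most 4 counts. Mitochondrial genes took 7.98% to 8.56% of the counts with DMSO and 9.22% to 10.4% with dTAGV1, and the part of this difference in the results was not tested. Libraries were made by priming on poly(A) tails, so a tailed transcript gives about 1 read whatever its length. CPM was therefore compared between genes without dividing by length. Transcripts that are not cleaved and tailed, or that end outside the annotated gene, should add no count to it, which these counts cannot check. A count thus mixes transcript amount with 3′ end use, which counts per gene do not separate. Levels below are meant in this sense.

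The sequences at both ends of these genes are shown first because the drugs used here act on 3′ end formation and because BBC3 and PMAIP1 rose together. RefSeq windows of the 250 bases before a transcription start (GRCh38.p14) matched 8 of the 10 members. Capitals mark motif matches found by a search of both strands. The BBC3 window lies at chr19:47232668-47232917 on the minus strand and the PMAIP1 window at chr18:59899746-59899995 on the plus strand.
BBC3: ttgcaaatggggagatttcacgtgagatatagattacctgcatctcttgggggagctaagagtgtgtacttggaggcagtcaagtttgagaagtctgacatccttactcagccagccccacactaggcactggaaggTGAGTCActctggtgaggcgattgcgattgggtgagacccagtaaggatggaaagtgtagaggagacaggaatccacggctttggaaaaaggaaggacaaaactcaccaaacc
PMAIP1: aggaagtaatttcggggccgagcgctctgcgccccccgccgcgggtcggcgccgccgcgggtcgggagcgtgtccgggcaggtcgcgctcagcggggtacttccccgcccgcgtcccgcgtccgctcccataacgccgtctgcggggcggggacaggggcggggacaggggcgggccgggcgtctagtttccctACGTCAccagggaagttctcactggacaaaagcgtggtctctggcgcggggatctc
The BBC3 window held 1 match to TGANTCA, the AP-1 motif, which starts 113 bases before the transcription start. This motif is in 6.57% of the 35116 windows in the table. The PMAIP1 window held 1 match to ACGTCA, the core of the cAMP response element, which starts 56 bases before the transcription start and is in 7.1% of windows. No match to TTTNNCGC (an E2F-type motif) or to TGATGNAA (a C/EBP-ATF type motif) lay in either window. The 2 windows also differed in base composition, with 49.2% G and C for BBC3 and 72.8% for PMAIP1, around a median of 58% over all windows. Among the other 6 members matched, BCL2L1 held 1 TTTNNCGC (5.92% of windows). None of these 4 motifs was found in the window searched for BAX, BAK1, BCL2L11, BID and BCL2L12. Only 1 window per gene was searched, the one nearest the annotated gene start. BID has 5 windows, BCL2L12 has 2 and BCL2L1 has 2, so their other windows were not searched.

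The last 30 bases of the annotated transcripts are given for the 5 members that changed and for the pair of pro-survival genes (GENCODE 29, GRCh38). Capitals mark the poly(A) signal, the hexamer at which the cleavage machinery assembles.
BBC3: tttccttttcAATAAAatcagattggaaca
PMAIP1: gcagtaaactATTAAAagttttcactgttc
BID: gtttggaAATAAAtcttcctaacactacga
BIK: gagtgctcAATAAAatgttggtttccagca
BCL2L12: aacttttcttATTAAAaacgttacaaagta
MCL1: agaaaaaaaAATAAAtcttttattcaaata
BCL2L1: AATAAActgtgtttactcagtgaacaaaga
The BBC3 end lies at chr19:47220827-47220856 and the MCL1 end at chr1:150574556-150574585, both on the minus strand. The PMAIP1 end lies at chr18:59904277-59904306 and the BCL2L12 end at chr19:49673887-49673916, both on the plus strand. The BID and BCL2L1 ends lie at chr22:17734138-17734167 and chr20:31664452-31664481 on the minus strand, and the BIK end at chr22:43129683-43129712 on the plus strand. Among all 10 members, 7 had AATAAA in their last 40 bases, PMAIP1 and BCL2L12 had the variant ATTAAA, and BCL2L11 had neither. AATAAA was there in 61.9% and ATTAAA in 14.8% of 10628 tested genes with such a transcript. TGTA, the DNA form of the UGUA that cleavage factor Im recognises, occurred in the last 100 bases of 5 of the 10 members and of 55.4% of the genes. BBC3 held it 4 times there, a number reached by 1.47% of genes (156 of 10628). That cut is BBC3's own number, so the share does not measure how unusual the family is. PMAIP1, MCL1, BAX and BCL2L11 held it 1 time each. Only 1 annotated end per gene was searched, and BBC3 has 2 among its coding transcripts. Which of these ends the cells used was not measured, since the tables give 1 count per gene.

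Of the 10 members, 5 passed the threshold of 0.05 (edgeR's quasi-likelihood test, p adjusted over all tested genes after Benjamini and Hochberg), BBC3 and PMAIP1 being higher with dTAGV1 and BID, BIK and BCL2L12 lower. This share of 50% stands beside 57.9% of all 12618 tested genes, so the family was not called more often than genes in general. Higher calls made up 29.4% and lower calls 28.5% of all tested genes. The median log2 fold change of the members was -0.12, against 0.01 over all tested genes, and the median absolute value was 0.24 against 0.42. Where the mean reached 100 counts, 5 of 8 members and 64.4% of all genes were called, and below that mean 0 of 2 members and 51.2%. The groups did not overlap in CPM for 4 members, against 50.9% of tested genes.

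**Figure D1:**
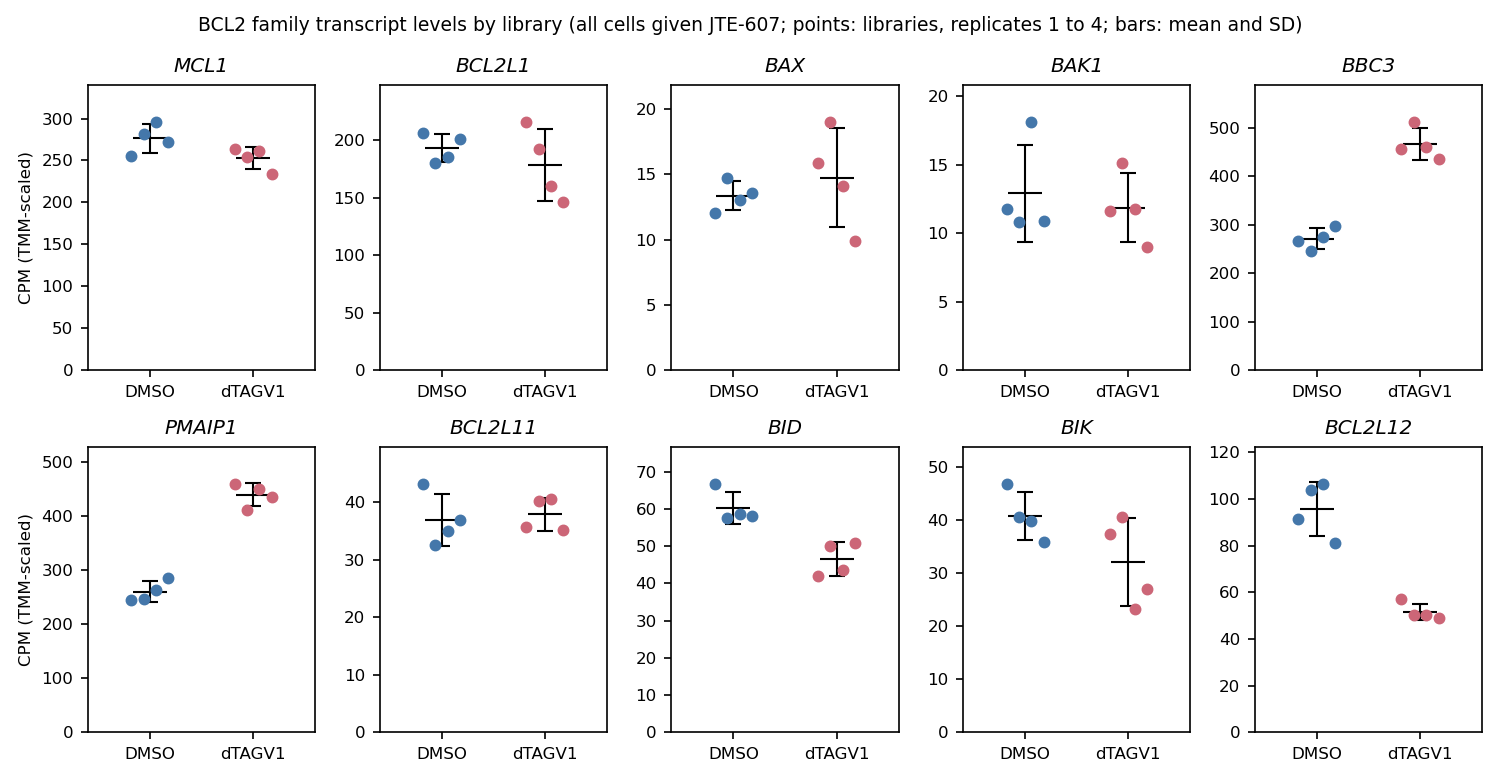
TMM-scaled CPM (vertical axes, from 0) of each of the 10 genes in the 4 DMSO and the 4 dTAGV1 libraries, all with JTE-607; points are libraries in the order of their replicate numbers, and black marks are the mean and SD. BBC3 and PMAIP1 lie wholly higher with dTAGV1, BID and BCL2L12 wholly lower, and the groups overlap in the other 6 genes.

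BBC3 (ENSG00000105327; GRCh38 chromosome 19, 47220822 to 47232766, minus strand, protein-coding) encodes PUMA, a BH3-only protein that binds all the main pro-survival proteins. Its level was 267, 246, 276 and 298 CPM in DMSO replicates 1 to 4 and 457, 513, 460 and 436 CPM in dTAGV1 replicates 1 to 4. Every dTAGV1 library was above every DMSO library, and the lowest of them was still over 100 CPM above the highest DMSO value. BBC3 rose 1.72-fold (95% interval 1.54 to 1.91), or 0.78 on the log2 scale (standard error 0.07; edgeR, adjusted p = 2.52e-09). Its counts were 976 to 1207 in the DMSO libraries and 1561 to 1843 in the dTAGV1 libraries, so counting error is small, at 3.07% and 2.44% of the mean. The observed spread was 7.96% and 7.02%. BBC3 shares 76 exon bases with the microRNA gene MIR3191 on the same strand, and no other gene of GENCODE 29 overlaps it on that strand.

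PMAIP1 (ENSG00000141682; chromosome 18, 59899948 to 59904306, plus strand, protein-coding) encodes NOXA, which binds MCL1 preferentially and promotes its loss. PMAIP1 stood at 245, 247, 264 and 287 CPM with DMSO and at 460, 413, 452 and 437 CPM with dTAGV1, again without overlap. It rose 1.69-fold (95% interval 1.53 to 1.87), or 0.76 on the log2 scale (standard error 0.07; edgeR, adjusted p = 2.18e-09). The increases of BBC3 and PMAIP1 were alike in size, and the ratio of BBC3 to PMAIP1 counts was 1.04 ± 0.0386 in the DMSO libraries and 1.06 ± 0.12 in the dTAGV1 libraries (SD, n = 4 each). Among the fold changes of all tested genes, BBC3 lay at percentile 88.5 and PMAIP1 at percentile 87.9. Both genes were called with the same sign in all 17 alternative fits, with log2 fold changes of 0.70 to 0.82 for BBC3 and 0.68 to 0.80 for PMAIP1.

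None of the other 3 BH3-only genes was called higher. BCL2L11 (ENSG00000153094; chromosome 2, 111119378 to 111168447, plus strand) encodes BIM, a potent activator of BAX and BAK1 and a target of FOXO factors. Its level was 32.6 to 43.2 CPM with DMSO and 35.2 to 40.7 CPM with dTAGV1, and the dTAGV1 range lay inside the DMSO range. The log2 fold change was 0.04 (95% interval -0.20 to 0.28; edgeR, adjusted p = 0.786), so a change as large as that of BBC3 or PMAIP1 lies outside its interval. MIR4435-2HG overlaps BCL2L11 on the opposite strand and had a log2 fold change of 0.56 (edgeR, adjusted p = 0.00027), but BCL2L11 had only 2 counts on its opposite strand in all libraries together.

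BID (ENSG00000015475; chromosome 22, 17734138 to 17774770, minus strand) encodes the protein that links death receptors to mitochondria once caspase-8 has cut it. Its level was 66.7, 57.6, 58.7 and 58.1 CPM with DMSO and 41.9, 50.1, 43.6 and 50.8 CPM with dTAGV1. All dTAGV1 libraries were lower, and DMSO replicate 1 stood above the other DMSO libraries. BID fell to 0.776 of its DMSO level (95% interval 0.671 to 0.896), or -0.37 on the log2 scale (standard error 0.10; edgeR, adjusted p = 0.0032). Reads on the opposite strand of BID moved the other way, from 23 to 34 counts in the DMSO libraries to 49 to 53 in the dTAGV1 libraries, and made up 16.5% of the reads on both strands. With counts taken irrespective of strand, which add these reads to BID, the log2 fold change was -0.17 and the call was lost (edgeR, adjusted p = 0.118).

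BIK (ENSG00000100290; chromosome 22, 43110748 to 43129712, plus strand) encodes a BH3-only protein found largely at the endoplasmic reticulum. It stood at 46.7, 40.5, 39.8 and 35.9 CPM with DMSO and at 37.4, 40.5, 23.3 and 27 CPM with dTAGV1. dTAGV1 replicates 3 and 4 were below all DMSO libraries, while replicates 1 and 2 lay within the DMSO range. BIK fell by 0.35 on the log2 scale (standard error 0.15; edgeR, adjusted p = 0.0439), just past the threshold. The call was lost without DMSO replicate 1, 2 or 3 (adjusted p = 0.122, 0.0681 and 0.0668), without dTAGV1 replicate 3 or 4 (0.152 and 0.106) and with DESeq2 (0.0505). Of 17 alternative fits, 11 kept it, and all 17 gave a lower level with dTAGV1, from -0.49 to -0.24.

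BCL2L12 (ENSG00000126453; chromosome 19, 49665142 to 49673916, plus strand, protein-coding) encodes a divergent family member with reported anti-apoptotic roles. It had the largest decrease of the 10. Its level was 91.5, 104, 106 and 81.4 CPM with DMSO and 57, 50.1, 50.4 and 49 CPM with dTAGV1, so that the groups were far apart and the dTAGV1 libraries close together. BCL2L12 fell to 0.539 of its DMSO level (95% interval 0.468 to 0.621), or -0.89 on the log2 scale (standard error 0.10; edgeR, adjusted p = 3.49e-08). It was called in all 17 alternative fits, with -0.97 to -0.84. IRF3, an interferon transcription factor gene on the opposite strand, shares 734 exon bases with BCL2L12 at their common 5′ end, and its log2 fold change was -0.87 (edgeR, adjusted p = 1.43e-05). Opposite-strand counts of BCL2L12 were 127 in the DMSO libraries together and 40 in the dTAGV1 libraries together. A pseudogene, BCL2L12P1, could take part of the reads, so the level is uncertain.

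The pair of pro-survival genes passed the test in neither direction. MCL1 (ENSG00000143384; chromosome 1, 150574551 to 150579738, minus strand, protein-coding) had the highest mean level of the 10 genes with DMSO, in ranges that overlapped those of BBC3 and PMAIP1, and lay at percentile 95.2 of tested genes averaged over all libraries. It stood at 255, 282, 296 and 272 CPM with DMSO and at 263, 254, 262 and 234 CPM with dTAGV1, with overlapping groups. The log2 fold change was -0.13 (95% interval -0.27 to 0.02; edgeR, adjusted p = 0.134). This interval allows a level between 0.828 and 1.01 times that with DMSO, so a decrease of that size can be neither shown nor set aside at this precision. When libraries were scaled by their size alone, which moved the median of all genes by -0.07, MCL1 reached -0.20 and passed (edgeR, adjusted p = 0.015).

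BCL2L1 (ENSG00000171552; chromosome 20, 31664452 to 31723989, minus strand, protein-coding) gives BCL-XL by its longer splice form. Its level was 207, 180, 186 and 201 CPM with DMSO and 216, 192, 160 and 146 CPM with dTAGV1. The 4 dTAGV1 libraries enclosed the DMSO range, with replicate 1 above it, replicate 2 inside it and replicates 3 and 4 below it, and their spread was 17.7% of the mean where counting error would give 3.95%. The log2 fold change was -0.12 (95% interval -0.32 to 0.09; edgeR, adjusted p = 0.321). Without dTAGV1 replicate 1 it was -0.23 and passed (adjusted p = 0.0268). BAX, with 42 to 63 counts in these libraries, and BIK were also lower in dTAGV1 replicates 3 and 4 than in replicates 1 and 2. The other members did not split in this way. Unmapped reads made up 30.3% and 29.9% of replicates 1 and 2 and 24.9% and 20.4% of replicates 3 and 4, and the part of this difference in the gene values was not tested.

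BCL2L1 reads fell into a pair of classes by strand. Of its 5574 reads, 3411 (61.2%) were counted to it only when strand was used. Counters drop a read in this way when it also falls in a gene on the other strand, and the tables do not say which gene that is. BCL2L12 lost 7.42% in that way and each other member under 1%. The strand-dependent share of BCL2L1 reads was 64.0%, 64.0%, 63.8% and 64.2% in DMSO replicates 1 to 4. It was 59.4%, 63.4%, 53% and 54.5% in dTAGV1 replicates 1 to 4. The groups did not overlap and their means differed by -6.42 percentage points, in a comparison chosen after these values were seen and so given with no test. The 95% Wilson interval of a single library, which covers counting error only, was 59.6% to 67.1% for dTAGV1 replicate 2, which holds all 4 DMSO values, and 48.8% to 57.2% for dTAGV1 replicate 3, which holds none. From the DMSO to the dTAGV1 libraries, the strand-dependent reads went from 124 ± 8.12 to 104 ± 25.0 CPM and the rest from 69.6 ± 4.31 to 75.0 ± 9.31 CPM (SD, n = 4 each). In GENCODE 29 the antisense genes ABALON and AL117381.1 overlap BCL2L1, and where in BCL2L1 the reads of each class lie cannot be read from counts per gene.

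BAX and BAK1, whose proteins form the pores, had the lowest levels of the 10. BAX (ENSG00000087088; chromosome 19, 48954815 to 48961798, plus strand) ranged from 12 to 14.7 CPM with DMSO and from 9.93 to 19.0 CPM with dTAGV1. BAK1 (ENSG00000030110; chromosome 6, 33572547 to 33580293, minus strand) ranged from 10.9 to 18.1 CPM and from 8.99 to 15.1 CPM. Both pairs of ranges overlapped. The log2 fold change was 0.12 (95% interval -0.26 to 0.51; edgeR, adjusted p = 0.588) for BAX and -0.13 (-0.55 to 0.29; adjusted p = 0.611) for BAK1. With 38 to 68 counts per library these intervals are the widest of the 10, and levels from 0.835 to 1.42 times that with DMSO lie inside the interval of BAX. The pseudogenes BAK1P1 and BAK1P2 could take reads from BAK1, so its level is uncertain.

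**Figure D2:**
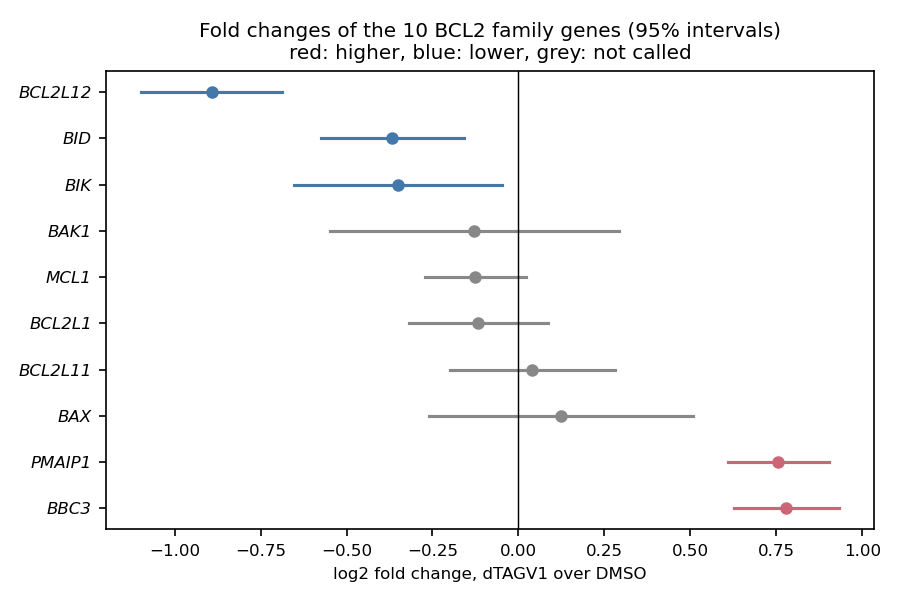
Log2 fold change of each of the 10 genes (points) with its 95% interval (lines), dTAGV1 over DMSO, from the fit across all tested genes; red marks genes called higher, blue genes called lower and grey genes not called. BBC3 (0.78) and PMAIP1 (0.76) stand apart on the right and BCL2L12 (-0.89) on the left, and the intervals of BAX and BAK1 are the widest.

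The order of levels changed at the top of the family. With DMSO, MCL1 (276 ± 17.1 CPM), BBC3 (272 ± 21.6 CPM) and PMAIP1 (261 ± 19.5 CPM) overlapped one another and formed the highest group (SD, n = 4 each). BCL2L1 (193 ± 12.4 CPM), BCL2L12 (95.8 ± 11.6 CPM) and BID (60.3 ± 4.28 CPM) followed, each apart from its neighbours. BIK and BCL2L11 overlapped below them, as did BAX and BAK1. With dTAGV1, BBC3 (467 ± 32.8 CPM) and PMAIP1 (440 ± 20.8 CPM) overlapped each other and lay above MCL1 (253 ± 13.3 CPM) in every library. BCL2L1 came next at 179 ± 31.7 CPM, and BCL2L12 (51.6 ± 3.63 CPM) and BID (46.6 ± 4.52 CPM) now overlapped.

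The make-up of the family's reads shifted accordingly. Shares add to a fixed total, so the rise of BBC3 and PMAIP1 by itself lowers the shares of the other genes. Neither MCL1 nor BCL2L1 was called in the reported fit. BBC3 and PMAIP1 together gave 42.2% ± 2.10 of the summed counts of the 10 genes with DMSO and 59.2% ± 1.56 with dTAGV1, while MCL1 and BCL2L1 together gave 37.2% ± 0.623 and 28.1% ± 1.45 (SD, n = 4 each). Counts of BBC3 for each count of MCL1 were 1.04, 0.873, 0.931 and 1.10 in the DMSO libraries and 1.74, 2.02, 1.76 and 1.86 in the dTAGV1 libraries. For PMAIP1 the ratio to MCL1 was 0.957, 0.877, 0.891 and 1.06 with DMSO and 1.75, 1.62, 1.73 and 1.86 with dTAGV1. These ratios do not depend on how libraries are scaled. They are ratios of RNA reads, and the amounts of protein were not measured.

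**Figure D3:**
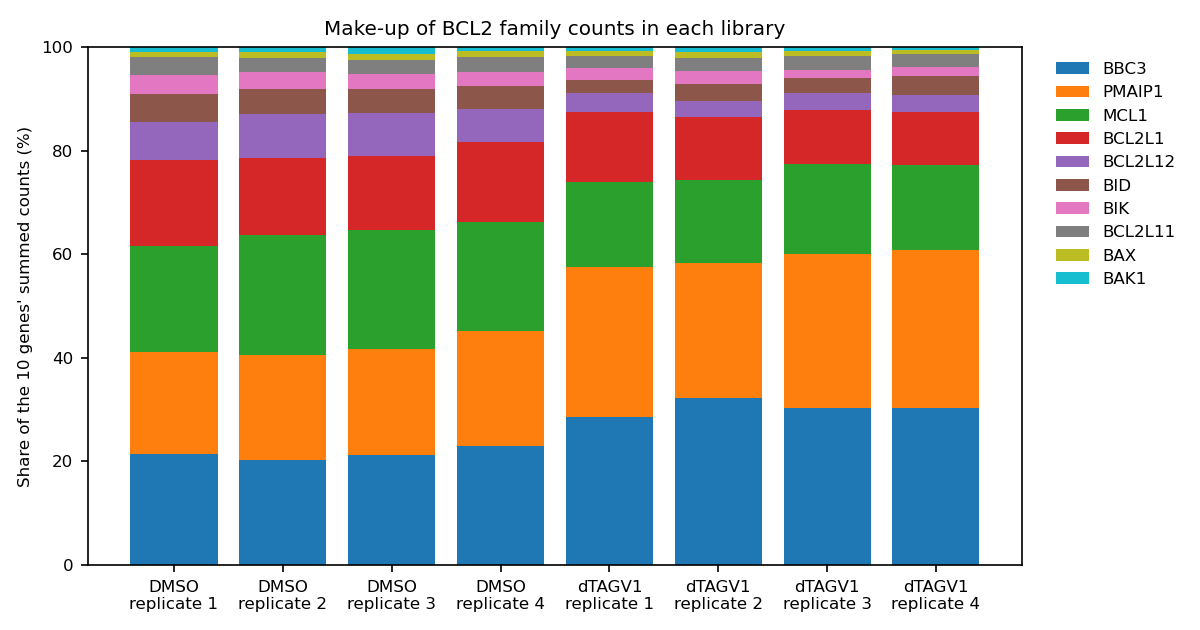
Share of the summed counts of the 10 genes (vertical axis, percent) taken by each gene, 1 bar per library, DMSO libraries on the left and dTAGV1 libraries on the right. BBC3 and PMAIP1 together fill 40.6% to 45.2% of the DMSO bars and 57.5% to 60.9% of the dTAGV1 bars.

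Beyond the 10 members, 15 further BCL2 and BNIP genes were listed, of which 10 could be tested, with 4 higher and 3 lower. The background for this and the later lists is 29.4% of all tested genes called higher and 28.5% called lower. HRK, another BH3-only gene, rose from 11.5 ± 0.672 to 23.6 ± 1.55 CPM (SD, n = 4 each), or 1.04 on the log2 scale with a 95% interval of 0.73 to 1.34 that overlaps those of BBC3 and PMAIP1. BNIP1 (0.73), BCL2L13 (0.48), a mitochondrial mitophagy receptor, and BNIP3L (0.42), also a mitophagy receptor, were higher as well. BCL2L2, which encodes the pro-survival protein BCL-w, fell from 15.2 ± 1.69 to 6.66 ± 1.39 CPM (SD, n = 4 each), or -1.20 on the log2 scale (edgeR, adjusted p = 1.2e-05). BCL2L2 shares 813 exon bases with the read-through gene BCL2L2-PABPN1 on the same strand, where the counting could split or drop reads, so this value is uncertain. BCL2L15 (-0.82) and BNIP2 (-0.52) also fell, and BCL2L15 was not called without DMSO replicate 1 or 2 or without dTAGV1 replicate 3 or 4 (edgeR, adjusted p of 0.0552 to 0.0874). BNIP3 was at 0.10 (adjusted p = 0.478), with 39 named pseudogenes that could take its reads. BCL2 itself had 0 to 6 counts per library, BMF 1 to 10, BCL2A1 0 to 1 and BCL2L10 0 to 2, too few to be tested. BCL2L14 was at 0 in all 8 libraries, where 3 counts would be 0.71 to 0.906 CPM. The median of this list was -0.11.

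Downstream of the membrane, cytochrome c released from mitochondria joins APAF1 to activate caspase-9, and inhibitor of apoptosis proteins restrain the caspases. Of 16 genes listed for this machinery, 15 were tested, with 4 higher and 8 lower (median log2 fold change -0.23). Among the inhibitors, XIAP fell from 131 ± 7.37 to 47.8 ± 9.14 CPM (log2 fold change -1.44), BIRC5 from 235 ± 59.7 to 89.7 ± 11.1 CPM (-1.38) and BIRC2 from 108 ± 10.3 to 58.1 ± 6.17 CPM (-0.88; SD, n = 4 each). BIRC3, which encodes cIAP2 and is a known NF-kB target, rose from 16 ± 6.17 to 124 ± 32.7 CPM (2.96 on the log2 scale). The 4 listed genes that encode inhibitor of apoptosis proteins thus split 3 lower and 1 higher. APAF1 (0.82) and HTRA2 (0.39) rose, whereas CASP9 (-0.88), ENDOG (-0.74), AIFM1 (-0.45), CYCS (-0.27) and VDAC3 (-0.23) fell. Nearly all reads of HTRA2 and ENDOG were counted only when strand was used. HTRA2 had 565 reads with strand and 7 without, and ENDOG had 441 and 1. The fit on counts irrespective of strand therefore could not test either gene. HTRA2 and VDAC3 were close to the threshold (edgeR, adjusted p = 0.0422 and 0.034), and they were called in 7 of 15 and 12 of 17 alternative fits. CYCS has 40 named pseudogenes, and its value is uncertain. VDAC1, the most abundant gene of the list that was not called, had -0.13 (adjusted p = 0.104). DIABLO had 1 to 3 counts per library and overlaps further genes on its strand, so it was not tested.

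Because MCL1 protein is controlled largely by ubiquitination, 10 genes for its turnover and upkeep were listed, and 5 were higher and 3 lower (median log2 fold change 0.18). FBXW7, a ubiquitin ligase component that recognises MCL1, rose from 118 ± 3.52 to 247 ± 18.8 CPM (SD, n = 4 each), or 1.06 on the log2 scale (edgeR, adjusted p = 1.25e-11). MARCHF5 (0.64) and BTRC (0.45), which also belong to ubiquitin ligases, and GSK3B (0.34), a kinase that marks MCL1 for them, rose too. Of the deubiquitinases that stabilise MCL1, USP9X rose by 0.34 on the log2 scale and USP13 fell from 35.8 ± 6.03 to 14.0 ± 2.58 CPM (-1.35). DUSP6, a phosphatase of ERK, had -0.997 and CDK9, a kinase that drives transcription elongation, had -0.49, both called. UBE2K had -0.12 and was not called (adjusted p = 0.129).

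Of 10 listed genes for transcription factors known to act on BH3-only genes, 4 were higher and 4 lower (median log2 fold change 0.20). ATF3 (1.43), DDIT3 (1.35), which encodes CHOP, JUN (1.23) and FOXO1 (1.22) rose. TP73 (-2.32), E2F1 (-1.98), MYC (-0.63) and FOXO3 (-0.28) fell. ATF4 had 0.24 (adjusted p = 0.0796), with dTAGV1 replicate 2 (191 CPM) within the DMSO range. Without that library it was 0.33 and passed (edgeR, adjusted p = 0.00271). It also passed at 0.22 with the replicate block (0.036) and at 0.21 with no filter (0.0302). Of 17 alternative fits, only these 3 called ATF4, and the 17 gave 0.14 to 0.33. Shares of called genes were 70%, 80%, 80% and 80% in the 4 lists, against 57.9% over all tested genes, and in each list calls went both ways.

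**Figure D4:**
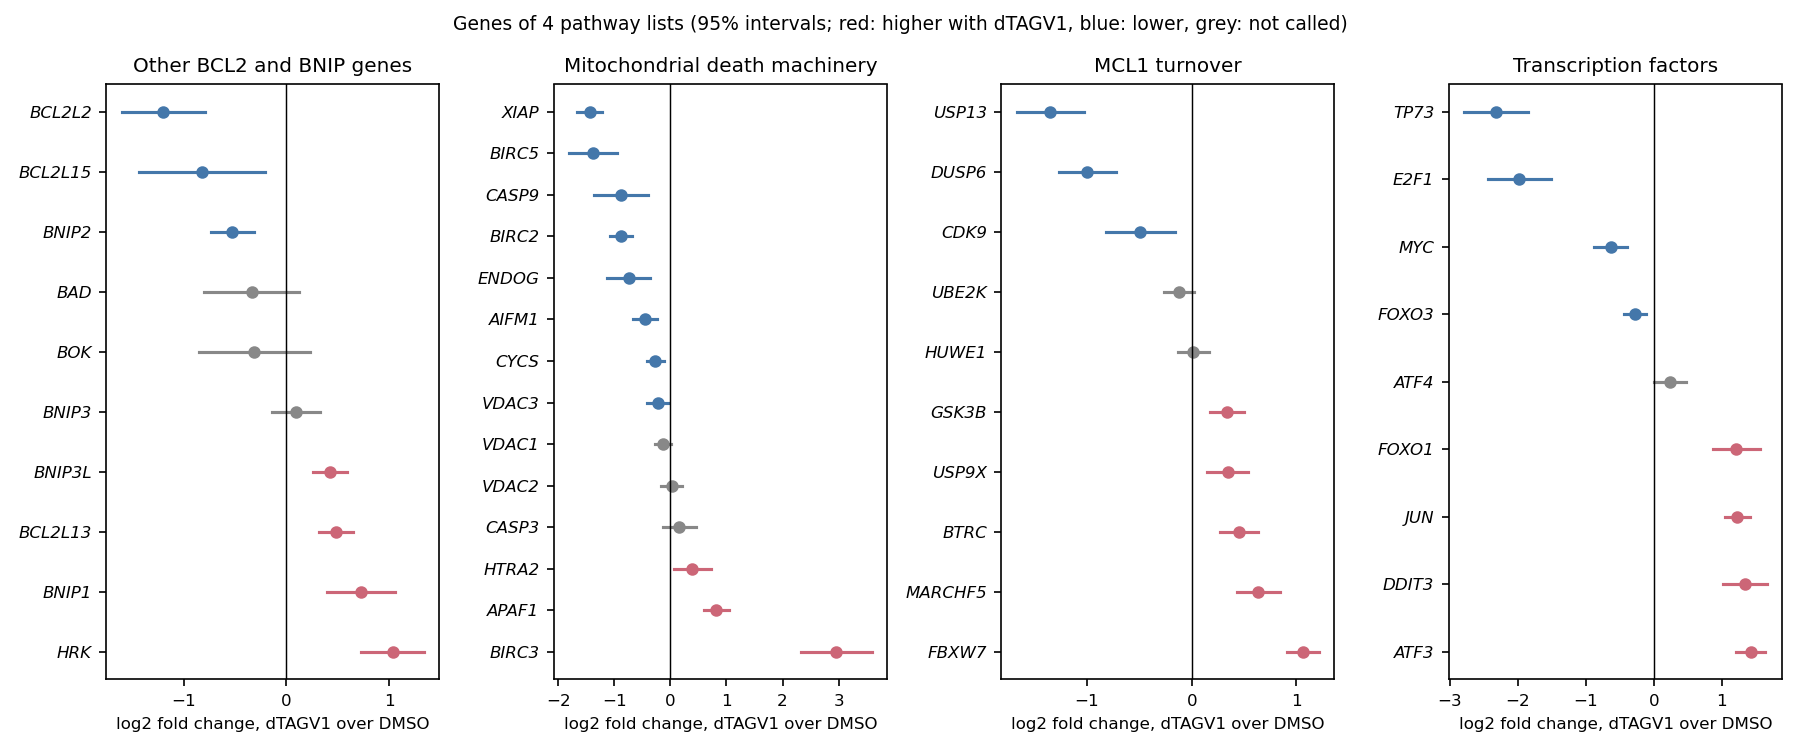
Log2 fold change (points) and 95% interval (lines), dTAGV1 over DMSO, of all but 2 of the tested genes in the 4 lists: further BCL2 and BNIP genes, the mitochondrial death machinery, MCL1 turnover, and transcription factors of BH3-only genes; red is called higher, blue called lower, grey not called, and the horizontal scales differ. BIRC3 (2.96) lies farthest to the right and TP73 (-2.32) farthest to the left.

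The calls of the members were compared across 17 alternative fits. BBC3, PMAIP1 and BCL2L12 were called in each of the 17, BID in 16 and BIK in 11. MCL1 and BCL2L1 were each called in 1, and BAX, BAK1 and BCL2L11 in none of those that tested them. The number of members called was 4 to 6 over these fits, against 5 in the reported one.

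**Figure D5:**
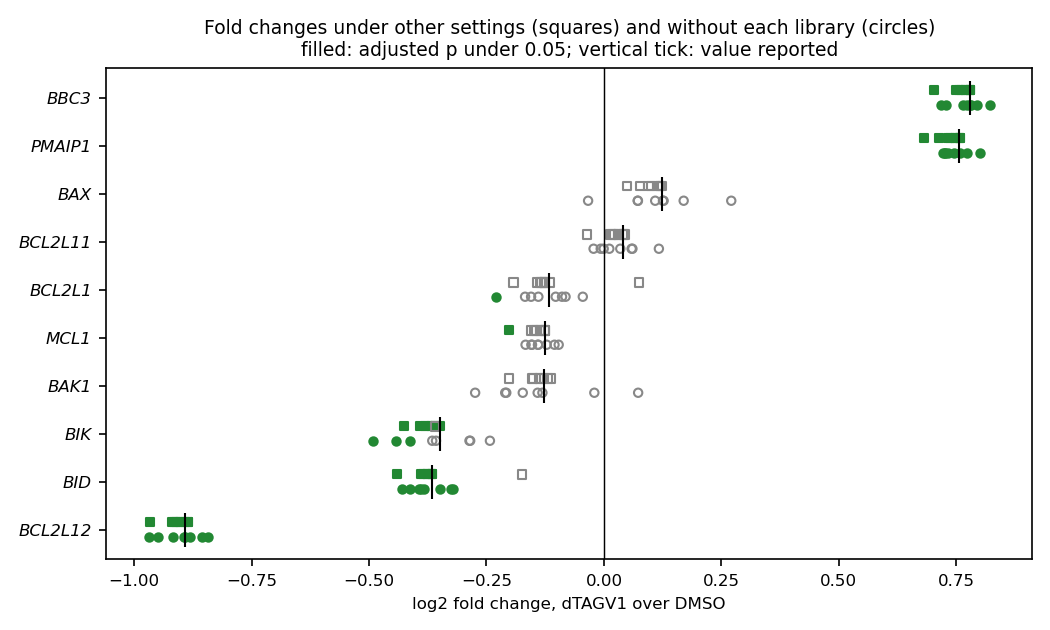
Log2 fold change of each of the 10 genes, dTAGV1 over DMSO (horizontal axis), under 9 other processing settings (squares) and with each of the 8 libraries left out (circles); filled green marks have an adjusted p under 0.05, open grey marks do not, and the vertical tick is the reported value. BIK has open marks among its circles, and the single open mark of BID at -0.17 is the fit on counts irrespective of strand.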

How the data were processed

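Per the labels' protocols, RNA was isolated with Trizol, and the QuantSeq forward kit of Lexogen was used to sequence 3′ ends of mRNA in 8 libraries. The authors deposited raw read counts per gene for each library, in the layout of STAR's per-gene output. The submitters' processing notes name FastQC, fastp, STAR, HTSeq, DESeq2 and GRCh38. Roles and versions of these tools, the gene annotation and any removal of PCR copies are not given in the sources used here. Counts on the strand of the gene were used. Reads given to no gene, 56.7% to 62.8% of each library, stayed out. A gene name table gave symbols for 12343 of 12618 tested genes, and GENCODE 29 (GRCh38), which held 12093 of them, gave positions; it is not stated to be the authors' annotation.

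Groups came from the sample titles. Genes were filtered with filterByExpr, scaled by TMM and tested with edgeR 4.0.16 (R 4.3.3, robust quasi-likelihood F test, Benjamini-Hochberg adjustment over 12618 genes, threshold 0.05). Standard errors are the log2 fold change over the root of F, and 95% intervals use the t distribution of the fit. The procedure was tested on simulated data.

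The members and the lists were chosen with earlier results of these data known. Named genes are all 10 members, NUDT21, each passing gene of the 4 lists, and the most abundant gene of each list that did not. HUWE1, genes that could not be tested and overlapping genes were named besides, after their values were seen. The values of these added genes in the alternative fits are not given. Results for 2 listed genes and 1 motif are not reported here, although the genes count in the list totals. Alternatives were RLE and library-size scaling, no filter, a mean of at least 100 counts, DESeq2 1.42.0, limma-voom (limma 3.58.1), a term for the replicate number, counts that ignore strand, a non-robust fit, and leaving out each library.

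Libraries within a group differed by more than sampling noise (chi-square over degrees of freedom 1.89 to 5.63). Wilson intervals and floors cover counting error only, whereas the intervals of fold changes also hold the spread between libraries.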

Additional observations from a re-analysis of the deposited data

Results flagged for a closer look

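In 100 groups of 4 libraries (50 named genes in 2 groups), 5 had a library whose gap to the nearest other exceeded Dixon's critical value at the 95% level, and chance flags about 1 in 20. BAK1 stood at 18.1 CPM in DMSO replicate 3, while the others were at 10.9 to 11.8 CPM. Without that library the log2 fold change of BAK1 was 0.07, with the opposite sign and again not called. BID was at 66.7 CPM in DMSO replicate 1, above 57.6 to 58.7 CPM in the others, and it was called without that library too. FBXW7 was at 275 CPM in dTAGV1 replicate 3, above 235 to 241 CPM. MARCHF5 was at 65.2 CPM in dTAGV1 replicate 2, below 83.0 to 84.2 CPM. ATF3 was at 168 CPM in dTAGV1 replicate 1, above 126 to 131 CPM. FBXW7, MARCHF5 and ATF3 were called in all 17 alternative fits.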

How the results depend on the processing

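A minimum mean of 100 counts took the genes that differ from 7302 to 4120 (2131 higher, 1989 lower), and those of the further BCL2 and BNIP genes to 3 and of the transcription factors to 5, because fewer genes were tested. Leaving out each library gave 6861 to 7232 genes (3382 to 3680 higher, 3396 to 3683 lower), 4 to 6 members, and 6 to 8, 10 to 12, 8 and 8 to 9 genes of the 4 lists. Library-size scaling lowered the share of higher calls from 50.8% to 43.8%. Of the members' 168 alternative values, 152 kept their direction and side of the threshold, 7 were weaker (6 of BIK, 1 of BID) and 2 stronger (MCL1, BCL2L1). The other 7 changed sign, none of them called. They were BCL2L1 on counts irrespective of strand (0.0751), BAK1 without DMSO replicate 3 (0.0728), BAX without dTAGV1 replicate 2 (-0.0337), and BCL2L11 with library-size scaling (-0.0356) and without DMSO replicate 2 (-0.0221), dTAGV1 replicate 2 or dTAGV1 replicate 3. With each library left out in turn, BAX had -0.0337 to 0.271, BAK1 -0.274 to 0.0728 and BCL2L11 -0.0221 to 0.117. The cause was not tested. No direction is given for these 4 genes. Of 665 values of the other named genes, 643 were unchanged in call, 17 were weaker and 5 stronger.

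The labels number replicates 1 to 4 in both groups without saying that a number marks a shared culture. Deviations of same-numbered libraries correlated at 0.135, -0.0221, 0.0253 and 0.0362 across genes. These values cannot show whether a number marks a shared culture. The reported fit used no pairing because the labels state none. With the replicate number as a block, 7434 genes and the same 5 members were called.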
